A study of Mus musculus with 4 samples.

Results

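The integrin and laminin genes were described across 4 mouse liver tumours that carry the label MYC;PMEPA1. The genes were chosen by symbol, taking every integrin alpha gene, integrin beta gene and laminin chain gene with a row in the deposited tables. This gave 37 of 24063 gene symbols, of which 18 encode integrin alpha chains, 8 integrin beta chains and 11 laminin chains. Of these, 30 reached a mean of at least 1 CPM (read count scaled to a common library size) over the tumours and are called expressed here, and 7 did not. Lama3 passed that filter only through tumour 9, since its mean over the other 3 tumours was 0.967 CPM.

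The libraries are poly-A RNA from tumours of C57BL/6 mice (C57BL6/J in the titles) that received MYC and PMEPA1 by hydrodynamic tail vein delivery, a rapid injection that carries DNA mainly into hepatocytes, with no treatment. MYC drives the growth programme as a transcription factor, and PMEPA1 is a membrane-bound brake on TGF-beta signalling. The tumours, numbered 1, 5, 9 and 10, form 1 group with no control, so no comparison between conditions was possible and the spread between tumours was the measurement. A passage number of 8 to 10, as used for cultured cells, stands in the labels, which do not give the promoter of the delivered genes, the animals' age or whether the tumours came from separate animals, so the spread may be in part technical. Gene totals lay between 41547938 and 51939623 counts, at which 3 counts, taken as the limit of detection, were worth 0.0524 to 0.0892 CPM. Summed markers of hepatocytes lay between 12264 and 35485 CPM, with the highest sum in tumour 10, and those of neutrophils between 12.1 and 574 CPM, with the highest sum in tumour 9.

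Integrins are receptors made of an alpha and a beta chain that tie the cytoskeleton to the matrix or to receptors on other cells. Resting hepatocytes carry a small set, mainly pairs of Itgb1, whereas the chains that pair with Itgb2 are made by leukocytes, and others belong to bile duct cells, platelets or muscle. Laminins are trimers of an alpha, a beta and a gamma chain that form the scaffold of basement membranes, which normal liver has around bile ducts and vessels but largely lacks along its sinusoids.

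The 30 expressed genes fell into 3 unlike patterns, seen in the plot of their levels by tumour. Of the 8 integrins of leukocytes, the 7 expressed ones were all highest in tumour 9. The integrins that hepatocytes make were the most even and included the 3 most abundant receptors per kilobase. The laminin chains stood high in different tumours chain by chain: Lamb1 in tumour 1, Lama5 and Lamb2 in tumour 10, and Lamc1 lowest in tumour 10. Each tumour was also set against the remaining 3 with edgeR's quasi-likelihood test. After Benjamini-Hochberg adjustment none of the 30 passed it, nor did any of the 13129 genes tested (0.0% in each tumour), so the tumour differences below are given with their sizes and standard errors (SE) and as not called.

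**Figure D1:**
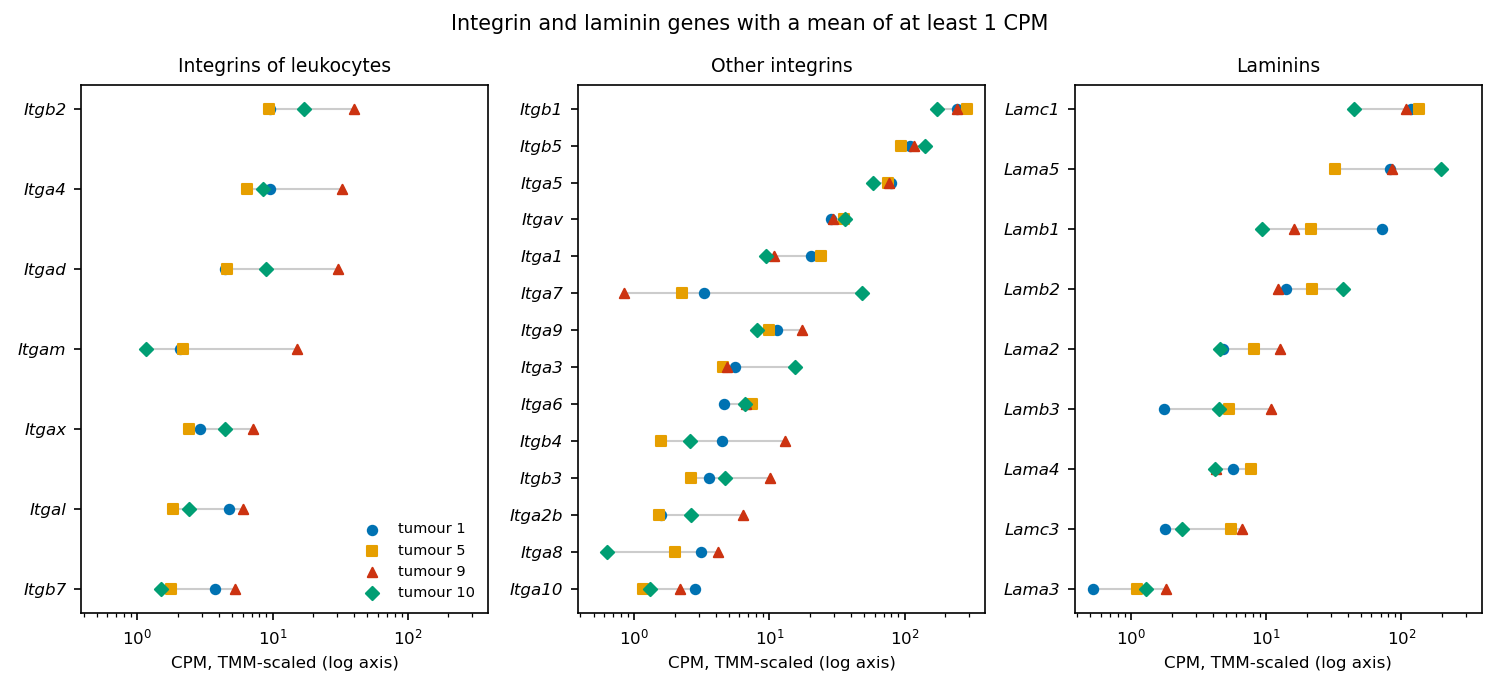
Level of each expressed integrin and laminin gene in each of the 4 tumours, in CPM scaled by the trimmed mean of M values (TMM) on a log axis, 1 point for each tumour. The leukocyte integrins are all highest in tumour 9, while Itgb1, Itga5, Itgav and Itgb5 differ little and Itga7 spans 57.4-fold.

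Every one of the 30 expressed genes varied between tumours by more than counting noise (Poisson heterogeneity test, adjusted p of at most 5.56e-08), as did 98.7% of all genes. With an added technical variation of 5% the count was again 30, beside 94.1% of all genes. The range between the highest and the lowest tumour ran from 1.28-fold for Itgav to 57.4-fold for Itga7. The standard deviation (SD) of log2 CPM was at least 1 for 9 of the 30 genes, beside 16.6% of all genes, and its median was 0.81, beside 0.45 for all genes. Within the groups this median was 0.98 for integrins of leukocytes, 0.27 for integrins of hepatocytes and 0.72 for laminins. Tumour 9 held the highest value of 16 of the 30 genes, beside 21.6% of all genes, and the lowest value of 2, beside 25.5%. Tumour 10 held the highest value of 6 genes (35.8% of all genes) and the lowest of 11 (32.4%). Tumour 5 likewise held the lowest value of 11 genes (20.3%), with 5 highest (21.2%), and tumour 1 held 3 highest (21.4%) and 6 lowest (21.8%).

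Before the values of the leukocyte and hepatocyte integrins, 250 bases ahead of the annotated start are shown for genes of each. A link between these sequences and the levels in the tumours was not tested. The sequences are from RefSeq on GRCm38.p6, and the capitals mark CpG pairs, the sites of DNA methylation, which are dense in the promoters of genes that most cells use. The contrast in CpG pairs was chosen after the tables were seen.
Itgam, chr7:128062390-128062639, plus strand: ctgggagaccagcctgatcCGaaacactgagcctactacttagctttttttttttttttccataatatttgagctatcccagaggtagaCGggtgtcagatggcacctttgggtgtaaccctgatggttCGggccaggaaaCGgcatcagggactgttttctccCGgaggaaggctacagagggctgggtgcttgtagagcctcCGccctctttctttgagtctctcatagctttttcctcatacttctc
Itgax, chr7:128129300-128129549, plus strand: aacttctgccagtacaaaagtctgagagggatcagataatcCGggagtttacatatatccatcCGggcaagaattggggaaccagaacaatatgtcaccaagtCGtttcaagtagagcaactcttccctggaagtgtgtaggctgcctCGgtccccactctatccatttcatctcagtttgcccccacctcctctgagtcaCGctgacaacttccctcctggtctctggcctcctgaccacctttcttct
Itgb1, chr8:128685404-128685653, plus strand: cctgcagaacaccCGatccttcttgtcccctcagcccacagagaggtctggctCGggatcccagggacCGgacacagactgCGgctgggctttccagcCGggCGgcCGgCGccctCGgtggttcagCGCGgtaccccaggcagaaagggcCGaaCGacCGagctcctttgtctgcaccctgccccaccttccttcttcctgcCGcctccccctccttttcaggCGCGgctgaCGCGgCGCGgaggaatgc
Itgb5, chr16:33829415-33829664, plus strand: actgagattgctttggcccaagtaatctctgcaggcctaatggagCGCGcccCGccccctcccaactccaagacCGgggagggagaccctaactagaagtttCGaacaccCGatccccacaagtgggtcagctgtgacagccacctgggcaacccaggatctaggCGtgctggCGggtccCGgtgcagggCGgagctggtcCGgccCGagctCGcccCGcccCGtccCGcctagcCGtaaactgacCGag

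The Itgam window held 6 CpG pairs and the Itgax window 5, while the Itgb1 window held 21 and the Itgb5 window 18. Windows of 23 of the 37 genes were used, 26 windows in all. For these genes, but not for the windows of the whole table, chromosome 18 was left out, where Lama3 lies. The 4 windows of leukocyte integrins (Itgam, Itgax, Itga4 and Itgb7) held 5 to 6 CpG pairs, and the 6 windows of hepatocyte integrins held 10 to 21. Among the latter, the Itga9 window lies inside the span of that gene in GENCODE M21 and not ahead of it. Over all 32851 windows of the table the median was 6, with quartiles of 2 and 16, so the leukocyte windows lay near the median and 2 of the hepatocyte windows shown lay above the upper quartile. The core GAGGAA of the site bound by PU.1, a factor of myeloid cells, was searched on both strands. It occurred in 1 of the 4 leukocyte windows (Itgam, 1 match on each strand), in 12 of 22 windows of the other genes and in 23.3% of all windows. Such a match is a description of letters and not a site.

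Among the integrins of leukocytes, Itgb2 is the shared beta chain that pairs with Itgal, Itgam, Itgax or Itgad. Its level was 9.50, 9.41, 39.8 and 17.2 CPM in tumours 1, 5, 9 and 10. Tumour 9 was 2.31-fold above tumour 10, the next highest, and tumours 1 and 5 lay close together (log2 difference of tumour 9 from the other 3 of 1.72 ± 0.51 SE, edgeR adjusted p = 0.510).

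Itgam, the alpha chain of complement receptor Mac-1 on neutrophils and macrophages, stood at 2.08, 2.17, 15.1 and 1.16 CPM. Tumour 9 was 6.93-fold above the next tumour (log2 difference from the other 3 of 3.06 ± 0.59 SE). Tumours 1 and 5 lay close together, and tumour 10 was lowest, 1.79-fold below tumour 1. Itgad, the alpha chain found on macrophages of spleen and inflamed tissue, stood at 4.44, 4.62, 30.3 and 8.98 CPM. Tumour 9 was 3.37-fold above tumour 10 (2.33 ± 0.57 SE, edgeR adjusted p = 0.408). Itgax, the alpha chain of dendritic cells and some macrophages, stood at 2.90, 2.40, 7.11 and 4.46 CPM, in the same order of tumours as Itgb2. Itgal, the alpha chain of LFA-1 on lymphocytes and other leukocytes, stood at 4.79, 1.84, 6.03 and 2.41 CPM. Its tumour 9 exceeded tumour 1 by only 1.26-fold, so this gene set tumours 1 and 9 apart from tumours 5 and 10.

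Itga4 pairs with Itgb1 or Itgb7 and holds leukocytes to Vcam1 on vessel walls. Its level was 9.54, 6.47, 32.4 and 8.44 CPM, with tumour 9 at 3.39-fold the next (1.99 ± 0.44 SE, edgeR adjusted p = 0.352). Itgb7, the partner of Itga4 and Itgae on gut-homing lymphocytes, stood at 3.77, 1.77, 5.30 and 1.49 CPM, again with tumour 1 second and 1.41-fold below tumour 9. Itgae, the alpha chain of lymphocytes within epithelia, lay between 0.397 and 0.707 CPM and did not reach the filter.

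At an unadjusted p under 0.05, 4 of the leukocyte integrins were higher in tumour 9 (Itgam, Itgad, Itga4 and Itgb2), as were 6 of the 30 expressed genes in all, the other pair being Itgb4 and Itga2b, beside 3.76% of all genes. None was lower there, beside 1.9% of all genes (5.66% in either direction). With DESeq2's Wald test, an alternative, 3 genes were called in tumour 9 (Itgam, Itgad and Itga4), beside 2.42% of all genes, with adjusted p of 0.00271, 0.0382 and 0.0127. With limma-voom 0 were called, as were 0 of all genes, so the call depends on the tool. The median deviation of the expressed leukocyte integrins from their own mean over the 4 tumours was -0.41, -0.74, 1.33 and -0.43 log2 units in tumours 1, 5, 9 and 10, beside -0.01, -0.00, -0.04 and 0.02 for all genes. Without tumour 9 it was 0.26, -0.29 and 0.04 in tumours 1, 5 and 10, so that the sign in tumours 1 and 10 rests on tumour 9. Summed over the 8 genes the levels were 37.7, 29.1, 137 and 44.7 CPM.

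Many, but not all, markers of the cells that carry these chains were highest in tumour 9, and edgeR called none after adjustment. All 10 neutrophil markers were expressed and highest in tumour 9, their summed levels being 12.1, 13.8, 574 and 25.6 CPM, led by S100a9 at 3.09, 2.94, 140.0 and 6.78 CPM. For 4 of the 10 (Camp, Elane, Cxcr2 and Retnlg) the mean over the other 3 tumours was under 1 CPM, so they passed the filter through tumour 9 and had to be high there. Of 12 markers of macrophages and Kupffer cells, 11 were expressed and 8 of these were highest in tumour 9, with summed levels of 335, 277, 1176 and 512 CPM. The remaining 3, markers of resident Kupffer cells and other tissue macrophages, were highest in tumour 1: Clec4f stood at 20.7, 2.99, 0.744 and 0.208 CPM, Marco at 8.67, 1.07, 2.68 and 0.208 CPM and Vsig4 at 7.48, 2.12, 3.26 and 0.387 CPM. These 3 markers are named after their values were seen, as are the 4 neutrophil markers and Cd3e. Lymphocyte markers were scarce in every tumour. Of 11 T and NK cell markers Cd4 alone was expressed, at 0.437, 0.514, 1.66 and 2.50 CPM, highest in tumour 10 and past the filter through that tumour only. The 11 markers had sums of 2.43, 2.29, 6.998 and 4.07 CPM, and the T cell receptor chain Cd3e reached at most 0.335 CPM. Markers of B cells summed to between 1.31 and 3.65 CPM and those of dendritic cells to between 1.78 and 5.92 CPM, in both cases with 1 marker expressed (that of dendritic cells through tumour 9 only) and the highest sum in tumour 9. None of these leukocyte markers was under 3 counts in every library. The part of leukocyte content in the integrin levels was not tested, and in bulk tissue fewer cells of a type and less RNA per cell cannot be told apart.

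The make-up of the Itgb2 family was compared per kilobase of transcript, since levels of different genes depend on length. The summed alpha chains came to 3.20, 2.58, 13.8 and 4.08 CPM per kilobase. Each gene was read from its row with the highest mean count. On these rows Itgad held the largest share in all 4 tumours, at 35.0%, 45.2%, 55.5% and 55.5%. That rank depends on the choice of rows. With transcript rows summed, the mean log2 ratio of Itgad to Itgal moved from 1.76 to -0.24. Itgam held 13.9%, 18.0%, 23.3% and 6.07%, so its share was highest in tumour 9 and lowest in tumour 10, while Itgal held its smallest share in tumour 9 (28.6%, 13.7%, 8.38% and 11.3%). Itgax held 22.5%, 23.2%, 12.8% and 27.1%. The beta chain Itgb2 stayed near the summed alpha chains in every tumour, at 1.04, 1.27, 1.01 and 1.47 times their level per kilobase. With transcript rows summed, the mean log2 ratio of Itgb2 to these chains moved from 0.24 to -0.44. Itgam, Itgax and Itgad lie next to each other on chromosome 7 (chr7:128062640-128118491, chr7:128129547-128150657 and chr7:128154376-128223816 in GENCODE M21 on GRCm38, all on the plus strand), and Itgal lies apart from them at chr7:127296260-127335138. Exons of the non-coding 4931431B13Rik overlap Itgad on the other strand over 388 bases, and its level was 1.64, 1.19, 9.32 and 3.09 CPM. Exons of Cerkl overlap Itga4 over 1124 bases, with 4.26, 3.48, 6.92 and 2.88 CPM. Whether counting used strand is not given in the sources used here, so shared reads cannot be told apart.

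Among the integrins of hepatocytes, Itgb1, Itgb5 and Itga5 were the 3 most abundant integrin genes per kilobase. Itgb1, the beta chain shared by most matrix receptors, stood at 244, 288, 243 and 175 CPM (238 ± 46.5 SD, n = 4). Per kilobase it reached 56.6 CPM on average, which placed it at percentile 87.2 of expressed genes. Tumour 10 was lowest, 1.39-fold below the next tumour. Itgb5, which pairs with Itgav to bind vitronectin, stood at 109, 94.3, 118 and 143 CPM (116 ± 20.3 SD, n = 4), at 35.4 CPM per kilobase and percentile 80.3. Its order of tumours depended on scaling: with total counts alone the values were 120, 97.2, 130 and 114 CPM, with tumour 9 highest in place of tumour 10.

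Itga5, the fibronectin receptor's alpha chain, stood at 79.3, 74.9, 76.8 and 58.5 CPM (72.4 ± 9.39 SD, n = 4), with tumour 10 at 1.28-fold below the next and the other 3 close together. Itgav, the alpha chain of vitronectin receptors, stood at 28.6, 35.8, 29.3 and 36.5 CPM (32.5 ± 4.18 SD, n = 4), the narrowest range of the 30 genes, with tumour 5 highest under total counts alone. Itga1, the collagen and laminin receptor of sinusoidal and mesenchymal cells as well as hepatocytes, stood at 20.5, 24.1, 10.7 and 9.43 CPM, which set tumours 1 and 5 above tumours 9 and 10. Itga9, which binds tenascin and osteopontin, stood at 11.3, 9.97, 17.4 and 8.06 CPM.

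Per kilobase, Itga5 made up 78.3%, 75.9%, 80.4% and 83.1% of the sum of Itga5, Itga1 and Itga9. Itgav, also an alpha chain of this group, was left out of that sum and averaged 4.61 CPM per kilobase. Of all beta chains, Itgb1 held 59.7%, 67.2%, 50.9% and 44.9% and Itgb5 34.1%, 28.2%, 31.7% and 46.7%. In tumour 10 the 2 chains were thus level at a ratio of 0.960. With transcript rows summed, the mean log2 ratio of Itgb1 to Itgb5 moved from 0.67 to -0.33. In edgeR's test at an unadjusted p under 0.05, 0 of these 6 genes differed in any tumour, beside 0.716%, 0.922%, 5.66% and 22.1% of all genes in tumours 1, 5, 9 and 10, shares at which few or none of 6 genes would pass. Summed hepatocyte markers meanwhile were 12264, 13555, 17413 and 35485 CPM, highest in tumour 10, where Itgb1, Itga5, Itga1 and Itga9 were lowest. Summed markers of stellate cells and fibroblasts were 341, 239, 398 and 94.1 CPM, lowest in tumour 10. Those of endothelial cells were 112, 103, 158 and 118 CPM, lowest in tumour 5. The part of each cell type in the levels of these integrins was not tested.

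Among the integrins of bile duct and other epithelia, Itga3, a laminin receptor of epithelia, stood at 5.61, 4.55, 4.82 and 15.6 CPM. Tumour 10 lay 2.77-fold above the next and the other 3 lay close together (log2 difference 1.64 ± 0.45 SE, edgeR adjusted p = 0.436). Itga6, the alpha chain of the hemidesmosome receptor and of a laminin receptor with Itgb1, stood at 4.63, 7.47, 6.72 and 6.57 CPM. Its partner Itgb4 stood at 4.47, 1.59, 12.9 and 2.59 CPM, with tumour 9 at 2.89-fold the next (2.16 ± 0.71 SE, edgeR adjusted p = 0.578), so the partners did not share an order of tumours. Per kilobase Itgb4 was below Itga6 in tumours 1, 5 and 10 (0.726 against 0.769, 0.258 against 1.24 and 0.420 against 1.09 CPM) and above it in tumour 9 (2.10 against 1.12 CPM). Itga2, a collagen receptor of epithelia and platelets, lay between 0.178 and 0.726 CPM. Markers of bile duct cells, which also make these chains, summed to 51.8, 81.2, 16.2 and 13.9 CPM, an order that neither Itga3 nor Itgb4 followed.

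Itgb6 and Itgb8 form the receptors with Itgav that release active TGF-beta from its latent complex, the pathway that PMEPA1 restrains. Both genes were at or near the detection limit, with the same counts of 4, 2, 7 and 0 in tumours 1, 5, 9 and 10, at most 0.130 CPM. The 0 counts in tumour 10 allow a level of up to 0.0892 CPM in that library. Their partner Itgav was at least 28.6 CPM. The latent complex itself was read in 9 genes, all expressed. Tgfb1, the ligand that this complex holds, stood at 9.42, 9.34, 27.6 and 16.3 CPM, highest in tumour 9. Ltbp4 and Ltbp3, which tie the complex to the matrix, stood at 19.9, 18.8, 18.9 and 12.8 CPM and at 6.67, 7.12, 7.84 and 7.23 CPM. Ltbp1, the most uneven of the list, stood at 1.19, 0.607, 2.40 and 0.0892 CPM. Nrros, which anchors the complex on myeloid cells, stood at 4.26, 3.43, 11.7 and 4.25 CPM and is named after its value was seen. Of the 9 genes 7 were highest in tumour 9, beside 21.6% of all genes, and Ltbp1 among them passed the filter only through that tumour. None was called by edgeR in any tumour. At an unadjusted p under 0.05, 1 was higher in tumour 9 (3.76% of all genes) and 2 were lower in tumour 10 (8.23%).

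Itga7, the laminin receptor of muscle, had the widest range of the 30 expressed genes, at 3.30, 2.26, 0.838 and 48.1 CPM (189, 97, 45 and 1618 counts). Tumour 10 stood 14.6-fold above tumour 1, the next highest, and tumour 9 was lowest (log2 difference of tumour 10 from the other 3 of 4.49 ± 0.71 SE, edgeR adjusted p = 0.202). Per kilobase it made up 2.28%, 1.61%, 0.426% and 27.3% of all integrin alpha chains, second only to Itga5 (30.6%) in tumour 10. Without tumour 9 the gene was called by edgeR, but the share of all genes called under that setting is not given here. DESeq2's Wald test called it with all tumours, beside 10.3% of all genes in tumour 10. With 1 of the other tumours left out, its log2 difference ranged from 4.07 to 4.96.

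The gene lies at chr10:128933818-128958282 on the plus strand, tail to tail with Mettl7b, and the exons of the 2 genes share 9 of the 8092 exon bases of Itga7 in the annotation. Mettl7b stood at 16.9, 7.12, 0.614 and 138 CPM, in the same order of tumours as Itga7. Since the use of strand in counting is not known, the part of Mettl7b reads in the Itga7 counts was not tested.

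**Figure D2:**
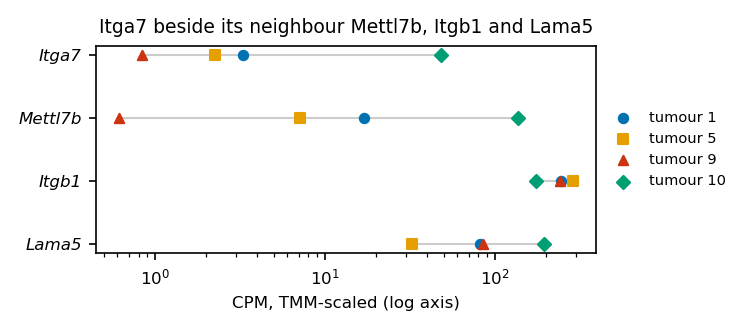
Levels in CPM (TMM-scaled, log axis) of Itga7, its neighbour Mettl7b, its partner Itgb1 and the laminin chain Lama5, with 1 point for each tumour. Itga7 and Mettl7b have the same order of tumours, with tumour 10 highest at 48.1 and 138 CPM and tumour 9 lowest, whereas Itgb1 is lowest in tumour 10.

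The other integrins of muscle, fibroblast and nerve tissue were low. Itga8, a receptor of stellate and smooth muscle cells, stood at 3.13, 2.01, 4.15 and 0.624 CPM, with tumour 10 at 3.22-fold below the next (-2.31 ± 0.89 SE, edgeR adjusted p = 0.668). Markers of stellate cells and fibroblasts were lowest in that tumour too, with sums of 341, 239, 398 and 94.1 CPM, and 9 of the 10 markers were lowest there. Itga10 and Itga11, collagen receptors of cartilage and fibroblasts, lay between 1.17 and 2.80 CPM and between 0.178 and 0.447 CPM.

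The integrins of platelets, Itga2b and Itgb3, form the fibrinogen receptor. Itga2b stood at 1.57, 1.52, 6.37 and 2.65 CPM, with tumour 9 at 2.41-fold the next (1.74 ± 0.63 SE, edgeR adjusted p = 0.654). Itgb3, which endothelial cells and macrophages also make, stood at 3.55, 2.62, 10.1 and 4.67 CPM (1.48 ± 0.57 SE, edgeR adjusted p = 0.699), in the same order of tumours. The other 7 platelet markers summed to 3.08, 2.71, 9.16 and 5.14 CPM, with 3 of them expressed and Gp6 under 3 counts in every library, and erythroid markers to 80.6, 114, 698 and 88.0 CPM. The part of blood cells in these levels was not tested.

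Lama5, the alpha chain of the mature epithelial and vascular basement membrane, was the most abundant alpha chain per kilobase in every tumour, at 7.20, 2.85, 7.47 and 17.2 CPM per kilobase. In CPM it stood at 82.0, 32.5, 85.1 and 196. Tumours 1 and 9 lay close together, tumour 10 was 2.30-fold above tumour 9 (1.56 ± 0.55 SE, edgeR adjusted p = 0.632) and tumour 5 was 2.52-fold below tumour 1 (-1.90 ± 0.72 SE, edgeR adjusted p = 0.668).

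Lama4, the chain of vessels and mesenchyme, stood at 5.66, 7.73, 4.28 and 4.19 CPM, and Lama2, the chain of muscle and stroma, at 4.79, 8.17, 12.7 and 4.52 CPM. Lama3, the chain of epithelial anchoring, stood at 0.524, 1.10, 1.81 and 1.28 CPM. Lama1, the embryonic chain, stood at 2.06 CPM in tumour 1 and between 0.0297 and 0.257 CPM in the others, the lowest being 1 count in tumour 10. As shares of the alpha chains per kilobase, Lama5 held 80.9%, 55.9%, 77.2% and 93.0%. In tumour 5, where this share was lowest, Lama4 held 25.03% and Lama2 16.5%, whereas in tumour 10 they held 3.75% and 2.52%.

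The leading beta chain differed between tumours. Lamb1, the beta chain of embryonic and most adult laminins, stood at 72.2, 21.3, 15.97 and 9.37 CPM, with tumour 1 at 3.38-fold the next (2.21 ± 0.52 SE, edgeR adjusted p = 0.373). Lamb2, which takes its place in mature vessel, kidney and muscle membranes, stood at 14.1, 21.8, 12.2 and 37.2 CPM, highest in tumour 10 (1.22 ± 0.41 SE, edgeR adjusted p = 0.574). The ratio of Lamb1 to Lamb2 per kilobase was therefore 4.99, 0.955, 1.28 and 0.245, with tumours 1 and 10 at the ends and tumours 5 and 9 near parity. Lamb3, a chain of epithelial anchoring that pairs with Lama3, stood at 1.75, 5.25, 10.8 and 4.43 CPM and made up 35.3% of the beta chains in tumour 9 but 2.82% in tumour 1.

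Lamc1, the gamma chain of nearly all basement membrane laminins, stood at 117, 135, 108 and 44.7 CPM. Tumours 1, 5 and 9 lay close together and tumour 10 was 2.41-fold below the lowest of them (-1.42 ± 0.27 SE, edgeR adjusted p = 0.255). With 1 of the other tumours left out, the log2 difference of Lamc1 in tumour 10 ranged from -1.53 to -1.33. That of Lamb1 in tumour 1 ranged from 1.96 to 2.51. Lamc3, the chain of nerve and vessel laminins, stood at 1.78, 5.49, 6.57 and 2.38 CPM.

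Laminin trimers need 1 gamma chain for each beta and each alpha chain, and these balances differed between tumours. The ratio of Lamc1 to Lamb1 plus Lamb2 per kilobase was 1.02, 2.34, 2.87 and 0.713, and that of Lama5 to Lamc1 was 0.470, 0.162, 0.529 and 2.93. In tumour 10, Lama5 alone thus exceeded Lamc1, while in the other 3 tumours Lamc1 was the more abundant. The median deviation of the 9 expressed laminins was -0.45, 0.19, 0.21 and -0.33 log2 units. Tumours 1, 5, 9 and 10 held the highest value of 1, 2, 4 and 2 of them, beside 21.4%, 21.2%, 21.6% and 35.8% of all genes. All 7 expressed leukocyte integrins were highest in tumour 9, and a test of this difference was not run. At an unadjusted p under 0.05, of the 30 genes Lamb1 alone was higher in tumour 1 (0.427% of all genes) and 0 were lower (0.289%, and 0.716% in either direction). In tumour 5, Lama5 alone was lower (0.305%) and 0 were higher (0.617%, and 0.922% in either direction), and DESeq2's Wald test called 0 there, beside 0.343% of all genes. In tumour 10, 4 genes were higher (Itga3, Itga7, Lama5 and Lamb2, beside 13.9% of all genes) and 2 lower (Itga8 and Lamc1, beside 8.23%), against 22.1% of all genes in either direction.

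**Figure D3:**
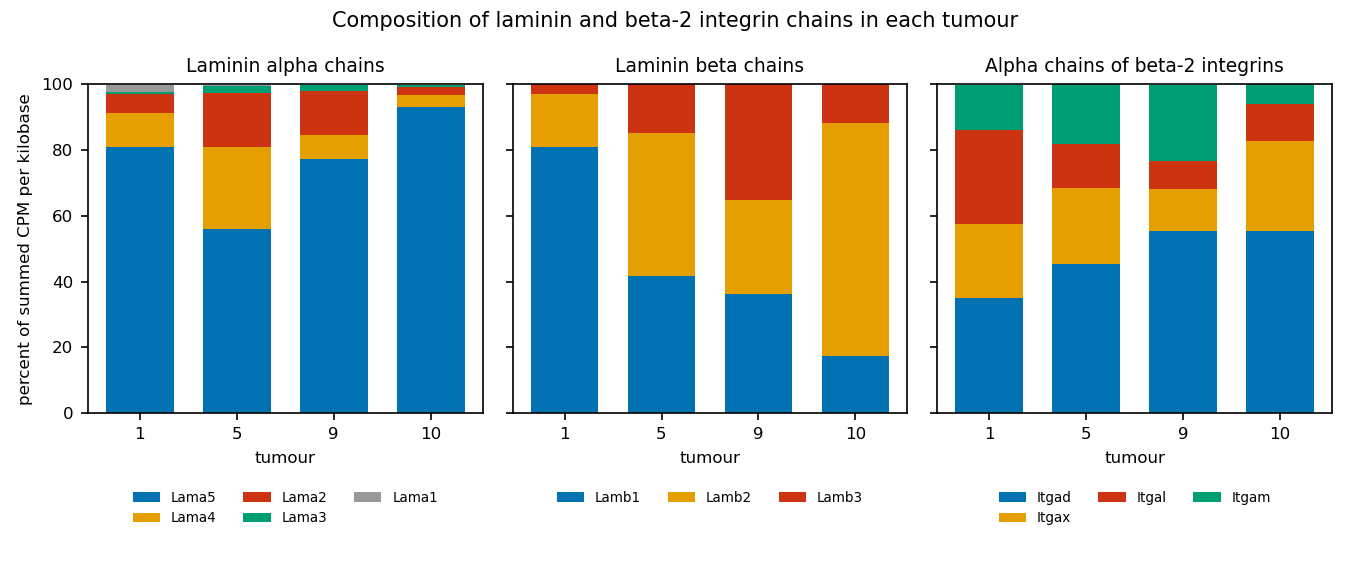
Share of each chain, in percent of the summed CPM per kilobase of its class, in each tumour, for laminin alpha and beta chains and for the alpha chains that pair with Itgb2. Lamb1 is 80.95% of the beta chains in tumour 1 and 17.4% in tumour 10, while Lama5 is the largest share of the alpha chains in every tumour.

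Of the other basement membrane proteins, 9 of 13 were expressed, and edgeR called none. Collagen IV, the second network of the basement membrane, is represented by Col4a1 at 161, 255, 263 and 146 CPM. Agrn, a proteoglycan that binds laminins, stood at 157, 179, 122 and 22.1 CPM, lowest in tumour 10 as Lamc1 was (-2.79 log2 units, edgeR adjusted p = 0.149). Col18a1, the source of endostatin, stood at 371, 422, 429 and 851 CPM, highest in tumour 10 as Lama5 was. Among 4 non-integrin laminin receptors, Dag1, which binds laminins and agrin, was even at 131, 137, 135 and 115 CPM, and Rpsa, a ribosomal protein also described as a laminin receptor, stood at 1803, 2056, 2229 and 2842 CPM. Sgce, a member of the sarcoglycan complex that holds Dag1, stood at 16.3, 27.6, 19.1 and 1.07 CPM (-4.29 log2 units in tumour 10, edgeR adjusted p = 0.169).

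Of the 12 integrin ligands of matrix and plasma 11 were expressed. The fibrinogen chains Fga, Fgb and Fgg, which hepatocytes secrete, stood at 797 to 2215, 917 to 3019 and 529 to 1980 CPM, each lowest in tumour 5 and highest in tumour 10. Thbs1, a matrix protein of platelets and stroma that also activates TGF-beta, stood at 6.01, 5.02, 27.2 and 8.18 CPM. Among counter-receptors on cells, Vcam1, the ligand of Itga4, stood at 56.3, 62.4, 373 and 128 CPM. Its highest tumour was 2.91-fold above the next and was the tumour in which Itga4 was highest (2.18 log2 units, edgeR adjusted p = 0.419). Icam1, the ligand of Itgal and Itgam, is named after its values were seen and stood at 68.1, 53.8, 65.8 and 48.5 CPM, with tumour 1 highest. Cdh1, the epithelial cadherin bound by Itgae, stood at 225, 267, 233 and 122 CPM, and F11r, a junction protein bound by Itgal, at 74.7, 76.9, 58.2 and 65.0 CPM.

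Inside the cell, all 27 adaptors and kinases of integrins were expressed. Tln1, the talin that switches integrins on, was even at 142, 144, 150.5 and 110.4 CPM, and the actin linker Actn4 stood at 398, 441, 371 and 366 CPM. Tns1, a tensin that ties mature adhesions to actin, stood at 43.7, 55.2, 103 and 200.2 CPM. Fermt1, the kindlin of epithelia, stood at 0.629, 2.38, 74.5 and 1.61 CPM, 31.3-fold higher in tumour 9 than in the next tumour (5.60 log2 units, edgeR adjusted p = 0.192). Fermt3, the kindlin of blood cells, and Parvg, the parvin of blood cells, are named after their values were seen and were also highest in tumour 9, at 6.32, 5.53, 24.3 and 10.9 CPM and at 3.23, 3.48, 15.3 and 5.80 CPM. Lims2, an adaptor in the complex of integrin-linked kinase that is likewise named after its values were seen, stood at 7.15, 4.97, 9.90 and 73.5 CPM (3.32 log2 units in tumour 10, edgeR adjusted p = 0.144).

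Over the 73 genes of these 6 lists, 67 were expressed and edgeR called none in any tumour after adjustment. At an unadjusted p under 0.05, 1 was higher in tumour 1, none differed in tumour 5, 8 were higher and 0 lower in tumour 9 (3.76% and 1.9% of all genes), and 8 were higher and 12 lower in tumour 10 (13.9% and 8.23%). DESeq2's Wald test called 0, 0, 2 and 11 of them in tumours 1, 5, 9 and 10, beside 0.221%, 0.343%, 2.42% and 10.3% of all genes. The SD of log2 CPM was at least 1 for 13 of the 67, beside 16.6% of all genes, with a median of 0.54, between that of all genes and that of the integrins and laminins.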

How the data were processed

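Poly-A RNA of 4 tumours was sequenced from TruSeq libraries, per the labels' protocols. The submitters' processing notes name FastQC 0.11.8 and GRCm38. For the aligner, the counter and its use of strand, nothing is given in the sources used here. The deposited tables give whole-number read counts for 33984 RefSeq transcript rows. The deposited FPKM and TPM columns, so named per the file headers, were used only to recover transcript lengths, which were whole numbers (tolerance 0.01 bases) in 100% of rows with counts, and to check units. Since a symbol can have rows for several isoforms, each symbol was represented by its row with the highest mean count. Of the 37 genes 9 had more than 1 row, 4 of them with identical counts.

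The genes and all lists were chosen with earlier results of these data known. Named genes were all members, and of each pathway list the 3 most abundant expressed genes and the 1 with the largest SD of log2 CPM; other names are marked as chosen after their values were seen.

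Counts were scaled by TMM (factors 1.10, 1.03, 1.10 and 0.802 for tumours 1, 5, 9 and 10) in R 4.3.3 with edgeR 4.0.16. With total counts alone, the median gene shifts by 0.14, 0.04, 0.13 and -0.32 log2 units, and levels are given relative to TMM. Log2 CPM adds a prior count of 2, and genes averaging 1 CPM or more counted as expressed. edgeR's robust quasi-likelihood test (two-sided) set each tumour against the remaining 3, with Benjamini-Hochberg adjustment across all genes and all 4 tumours at once and a threshold of 0.05; the lone tumour is assumed to vary like the others, and p-values measure only the spread between these libraries. SE is the log2 difference divided by the root of F. A Poisson chi-square test per gene asked for spread beyond counting noise. DESeq2 1.42.0 and limma 3.58.1 were alternatives. Scripts were tested on simulated data. Gene positions are those of GENCODE M21. Adgre1 and Tns2 were read under their older symbols Emr1 and Tenc1. Not every gene taken by the naming rule is reported here.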

Additional observations from a re-analysis of the deposited data

Results flagged for a closer look

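Of 47 results tested on the log2 scale for 1 sample far from the others in a group of 4, 2 stood out, and chance marks about 1 in 20. Itga3 was one, because its level in tumour 10, 15.6 CPM, lay far above the other 3 tumours relative to the whole range of its log2 CPM. The median deviation of the integrins of leukocytes was the other, because tumour 9, at 1.33 log2 units, lay far above the other 3 tumours.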

How the results depend on the processing

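No paired analysis was possible because the series holds 1 group. With DESeq2's Wald test the number of integrin and laminin genes called went from 0 to 1 in tumour 1, 3 in tumour 9 and 2 in tumour 10, and stayed at 0 in tumour 5. Of all genes, DESeq2's Wald test called 0.221%, 0.343%, 2.42% and 10.3% in tumours 1, 5, 9 and 10. With limma-voom, no gene of any kind was called in any tumour. With adjustment for each tumour alone, none of the integrin and laminin genes was called, while a small share of all genes was called in tumour 10. A few of the genes called there belong to the pathway lists. Leaving out 1 tumour at a time, Itga7 alone was called, in tumour 10 without tumour 9. The share of all genes called under that setting is not given here. The median deviation of the other integrins, 0.10 log2 units in tumour 9, became 0.40 with no filter. In tumour 10 it was -0.13 and became -0.41 with no filter, -0.45 with total counts alone and 0.064 as a mean, and ranged from -0.26 to 0.012 with 1 tumour left out. That of the laminins in tumour 1, -0.45, became 0.0062 with no filter and ranged from -0.44 to -0.10 with 1 tumour left out. Summing transcript rows adds up the 4 identical rows of Itgal, the 2 identical rows of Itgam and the 2 unlike rows of Itgb5. The counter is not known, and whether such rows hold the same reads or a split of them was not tested. The mean log2 ratio of Itgax to Itgal moved from 0.57 to -1.43 and that of Itgad to Itgal from 1.76 to -0.24. That of Itgam to Itgal moved from -0.017 to -1.02 and that of Itgam to Itgax from -0.59 to 0.41. That of Itgb2 to the summed alpha chains moved from 0.24 to -0.44 and that of Itgb1 to Itgb5 from 0.67 to -0.33. With total counts alone, the log2 difference of Itgb5 in tumour 10 went from 0.41 to -0.017, and the highest tumour of 2 genes and the lowest of 4 changed, while DESeq2's size factors changed the highest tumour of none. Genes that fail the filter of an alternative have no value under it. Values under 1 CPM rest on few counts.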

Other observations

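Itgb6 and Itgb8, on different chromosomes, had the same count in each of the 4 libraries (4, 2, 7 and 0), which at such low numbers is given as a value only. The longest exon overlap of any of the 37 genes was that of Itgam with the gene model Gm49368 on the same strand, over 68.7% of the exon bases of Itgam, and that model was not analysed here. In the annotation 12 of the 37 genes overlap exons of another gene, and for 4 of them a partner has a row in the tables.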
